A study of Homo sapiens with 4 samples.

Results

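The genes described here are the G1 cyclins, the cyclin-dependent kinases (CDKs) they activate and the CDK inhibitors that restrain them, in H9, a widely used line of human embryonic stem cells. They were chosen by gene symbol: CCND1, CCND2, CCND3, CCNE1, CCNE2, CDK2, CDK4, CDK6, CDKN1B and CDKN2C. Of these 10 genes, 9 were named by 13 of the 47293 probes on the array, whose annotation names 20037 genes in all, and no probe that is named here carried CDKN2C, the INK4 inhibitor p18. A probe was counted as detected on an array when its deposited detection p-value, which ranks it among the negative-control probes of that array, was under 0.01. By that criterion 10 of the 13 probes, standing for 8 of the genes, were detected on all 4 arrays, and these 8 genes are the measured members below.

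The 4 arrays each held 1 RNA sample, collected on day 2, of cells kept on matrigel in E8, which is a defined medium without serum. The groups were high density with bicarbonate (above 90% confluence, E8 with 20 mM additional sodium bicarbonate), high density in control medium (above 90% confluence, normal E8), low density with bicarbonate (below 70% confluence, the same addition) and low density in control medium (below 70% confluence, normal E8). All 4 groups share the H9 line, the matrix and the medium base. Per the title of the series, the study was about medium acidosis and its suppression in dense cultures of pluripotent cells.

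Progression from G1 into S phase is driven by D-type cyclins with CDK4 or CDK6 and by E-type cyclins with CDK2. These kinases phosphorylate the retinoblastoma family of pocket proteins and so release E2F transcription factors, which induce cyclin E and the genes of DNA replication. Inhibitors of the INK4 family block CDK4 and CDK6, and those of the Cip/Kip family, such as p21 and p27, bind cyclin-CDK complexes and above all restrain CDK2. Pluripotent stem cells are known for a short G1 phase, with little of these inhibitors and high CDK2 activity.

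With 1 array per group there was no test, no p-value is given, and the number of arrays limits the precision. The only spread at hand was that between different probes of a gene on the same arrays. Over 1738 genes with 2 or more detected probes, the log2 differences of the 2 brightest probes disagreed with an SD of 0.50 for the density comparison in control medium, 0.36 for bicarbonate at high density, 0.41 for bicarbonate at low density and 0.41 for density with bicarbonate. That spread holds no variation between cultures. Between 14128 and 15213 probes were detected per array, and the median intensity before normalization was lowest at high density with bicarbonate (117.4) and between 153.5 and 166.6 on the others. Of 12 markers of primed pluripotent cells with a probe, 11 or 12 were detected on each array. Probes for 5 primitive streak and mesoderm, 5 neuroectoderm and 5 trophoblast and amnion markers were detected on no array. Of 5 endoderm markers only FOXA2 was detected, and only at low density, with a log2 level of 10.15 with bicarbonate and 9.22 in control medium. Of 6 fibroblast markers the collagens COL1A1 and COL1A2 were detected on all 4 arrays, and the summed linear level of that list was 1596 at high density with bicarbonate, 996.2 in the high-density control, 730.3 at low density with bicarbonate and 884.1 in the low-density control. The part of these markers in the results below was not tested. In bulk RNA, fewer cells in a phase and less RNA per cell cannot be told apart.

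Cyclin E1 and p27 were the members that differed most over the 4 arrays, and the sequences upstream of their transcription starts are shown because the 2 genes stood apart by density in opposite directions. The RefSeq promoter table (GRCh38.p14) held 6 of the 10 genes. The 250 bases before the start are given 5′ to 3′ on the gene's strand, CCNE1 at chr19:29811741-29811990 (plus strand) and CDKN1B at chr12:12717118-12717367 (plus strand). Capitals mark GC boxes (GGGCGG) and the short E2F core TCCCGC in CCNE1, and GC boxes and CCAAT boxes in CDKN1B, on both strands. In CCNE1 the GC box that begins 127 bases before the start and the core match that begins at 125 share letters.
CCNE1: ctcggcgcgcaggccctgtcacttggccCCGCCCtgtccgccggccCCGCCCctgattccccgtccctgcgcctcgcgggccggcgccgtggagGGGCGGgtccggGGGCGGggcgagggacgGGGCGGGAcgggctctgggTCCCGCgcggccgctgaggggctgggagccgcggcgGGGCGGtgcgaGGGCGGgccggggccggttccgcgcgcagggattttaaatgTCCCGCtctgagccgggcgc
CDKN1B: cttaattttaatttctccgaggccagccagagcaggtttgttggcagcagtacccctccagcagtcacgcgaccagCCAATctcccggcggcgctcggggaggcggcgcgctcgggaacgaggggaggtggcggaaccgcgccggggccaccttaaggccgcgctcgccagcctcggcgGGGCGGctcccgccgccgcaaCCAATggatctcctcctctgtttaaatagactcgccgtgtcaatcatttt
The CCNE1 window held 7 GC boxes and 3 TCCCGC cores, 1 of which begins 20 bases before the start, next to an AT-rich stretch. The CDKN1B window held 1 GC box, 2 CCAAT boxes and 1 TCCCGC core. Of all 35116 such windows, 42.6% held at least 1 GC box, 23.5% at least 1 core and 32% at least 1 CCAAT box. How many windows held as many matches as that of CCNE1 was not counted. Neither window held a full E2F consensus (TTTCCCGC, TTTCGCGC, TTTGCCGC or TTTGGCGC, in which the first holds the core), which 2.79% of windows held, or the FOXO motif GTAAACA, which 2.98% held. These matches describe letters, and binding was not measured.

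The first question was how the G1 genes differed between cells at high and at low density. In control medium CCNE1, cyclin E1, which activates CDK2 at the end of G1, was 2.11-fold lower at high density, and CDK6, a partner of the D-type cyclins, was 1.72-fold lower. CDKN1B, the inhibitor p27, was higher at high density on both of its probes. The D-type cyclins CCND1 and CCND3, and CDK2 and CDK4, were all less than 1.5-fold apart. All values are of background-corrected, quantile-normalized log2 intensity, given for the brightest detected probe of a gene unless stated, and a difference is the first group minus the second.

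**Figure D1:**
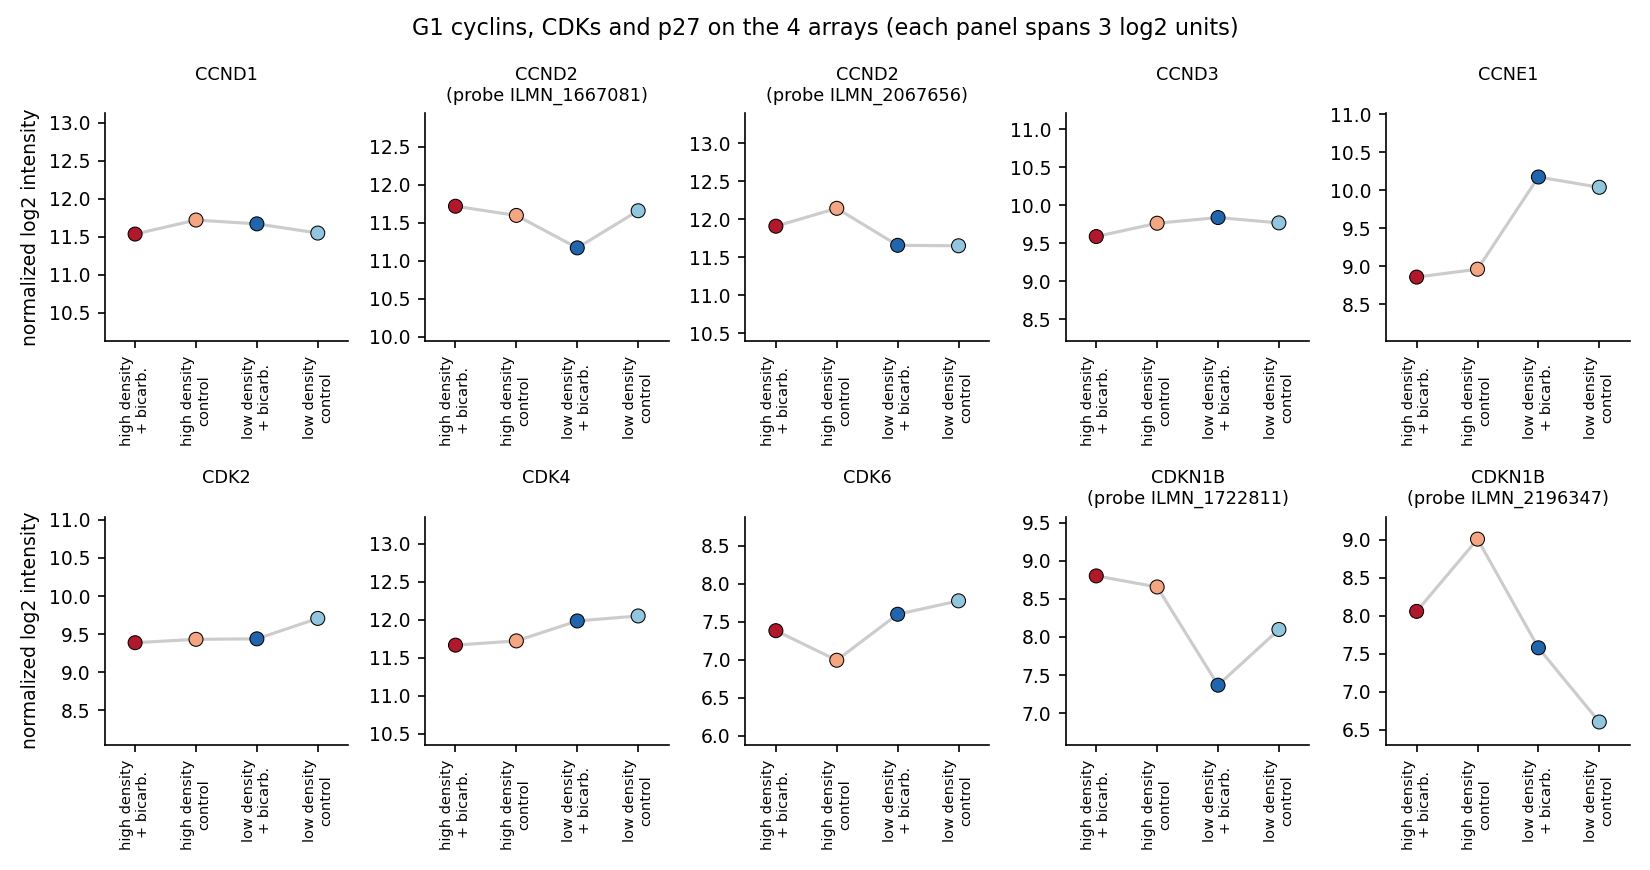
Normalized log2 intensity (y axis) of the 10 member probes detected on all 4 arrays, with 1 point per array (x axis) and the same span of the y axis in each panel, so that slopes can be compared and heights cannot. The CCNE1 points sit between 8.86 and 8.96 at high density and between 10.04 and 10.17 at low density, while the 2 CDKN1B probes are both higher at high density and order the media differently.

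Cyclin E1 had log2 levels of 8.86 at high density with bicarbonate and 8.96 in the high-density control, against 10.17 at low density with bicarbonate and 10.04 in the low-density control. The 2 high-density arrays thus lay close to each other and below both low-density arrays. The difference between densities was -1.08 in control medium, lower than that of 97.8% of 8936 measured genes, and -1.32 with bicarbonate (2.49-fold), lower than that of 99% of 8836. In neither comparison did cyclin E1 fall inside the central 95% of all measured genes, which ran from -1.04 to 1.15 in control medium and from -1.04 to 1.08 with bicarbonate. These 2 comparisons share no array. The other CCNE1 probe (ILMN_1733419) was detected on no array (detection p between 0.112 and 0.530), so a second reading of cyclin E1 was not to be had. The probe of CCNE2, the other E-type cyclin, was at background on every array, with a detection p between 0.829 and 0.982, and gives no comparison.

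CDKN1B was read by 2 probes detected on all 4 arrays. On ILMN_1722811, the brighter by its mean, the log2 levels were 8.80 at high density with bicarbonate and 8.66 in the high-density control, against 7.37 at low density with bicarbonate and 8.10 in the low-density control. On ILMN_2196347 they were 8.06 at high density with bicarbonate and 9.01 in the high-density control, against 7.58 at low density with bicarbonate and 6.60 in the low-density control. That last reading lay near the detection limit, with a detection p of 0.0052 and an intensity of 241.6, where the array median was 166.6. On each probe both high-density arrays lay above both low-density arrays. The density difference was 0.56 in control medium and 1.44 with bicarbonate on the first probe, and 2.41 and 0.48 on the second. So p27 RNA was 1.47-fold or 5.30-fold higher at high density in control medium, depending on the probe, and 2.71-fold or 1.39-fold higher with bicarbonate. The 5.30-fold value uses the reading near the detection limit. The size is therefore not settled, although all 4 values are positive. The disagreement of 1.85 between the 2 probes in control medium was larger than that of 99.5% of 1738 genes with 2 probes, and in the other medium it was 0.96, larger than that of 96.7%.

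CDK6 had log2 levels of 7.38 at high density with bicarbonate and 6.996 in the high-density control, against 7.60 at low density with bicarbonate and 7.78 in the low-density control. The high-density control was the lowest of the 4 and the low-density control the highest. The density difference of CDK6 was -0.78 in control medium and -0.22 with bicarbonate (1.16-fold). Without background correction the first of these was -0.46, which is under 1.5-fold. Before normalization its intensities ran from 224.9 to 390.6, where the medians of all probes were between 117.4 and 166.6.

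CDK4, the other kinase of the D-type cyclins, had levels of 11.67 at high density with bicarbonate and 11.72 in the high-density control, against 11.98 at low density with bicarbonate and 12.05 in the low-density control. Its difference was -0.33 in control medium and -0.32 with bicarbonate, each smaller than the SD of the disagreement between 2 probes (0.50 and 0.41). That SD divided by the square root of 2, for a single probe, was 0.35 and 0.29, and the difference with bicarbonate was larger than the latter. When arrays were set to equal medians the CDK4 values were -0.32 and -0.60, and the difference with bicarbonate then passed 1.5-fold. CDK2, the kinase of cyclin E, had levels of 9.39 and 9.43 at high density with and without bicarbonate, against 9.44 and 9.71 at low density with and without it. The density difference of CDK2 was -0.28 in control medium and -0.05 with bicarbonate. The second CDK2 probe (ILMN_1653443) was detected only in the low-density control, with a detection p of 0.00649 there and between 0.0104 and 0.0312 elsewhere.

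Of the D-type cyclins, which link growth factor signals to CDK4 and CDK6, CCND1 had levels of 11.54 at high density with bicarbonate, 11.72 in the high-density control, 11.67 at low density with bicarbonate and 11.55 in the low-density control. That was the narrowest range of any measured member (0.18), and 6.41% of the 8554 genes detected on all 4 arrays had a narrower one. It depends on the normalization. When arrays were set to equal medians, CCND1 stood at -0.48 for bicarbonate at high density, and its range was no longer the narrowest. CCND3 had levels of 9.59 at high density with bicarbonate, 9.76 in the high-density control, 9.84 at low density with bicarbonate and 9.77 in the low-density control, and a density difference of 0.00 in control medium and -0.25 with bicarbonate. CCND2 was read by 2 probes. On the brighter, ILMN_2067656, the levels were 11.91 at high density with bicarbonate and 12.15 in the high-density control, against 11.66 at low density with bicarbonate and 11.65 in the low-density control. On ILMN_1667081 they were 11.72 and 11.60 at high density with and without bicarbonate, against 11.17 and 11.66 at low density with and without it. The density difference of CCND2 in control medium was 0.49 on the first probe and -0.06 on the second, so its direction there depends on the probe, whereas with bicarbonate it was 0.25 (but -0.03 when arrays were set to equal medians) and 0.55. None of these D-cyclin differences reached 1.5-fold.

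**Figure D2:**
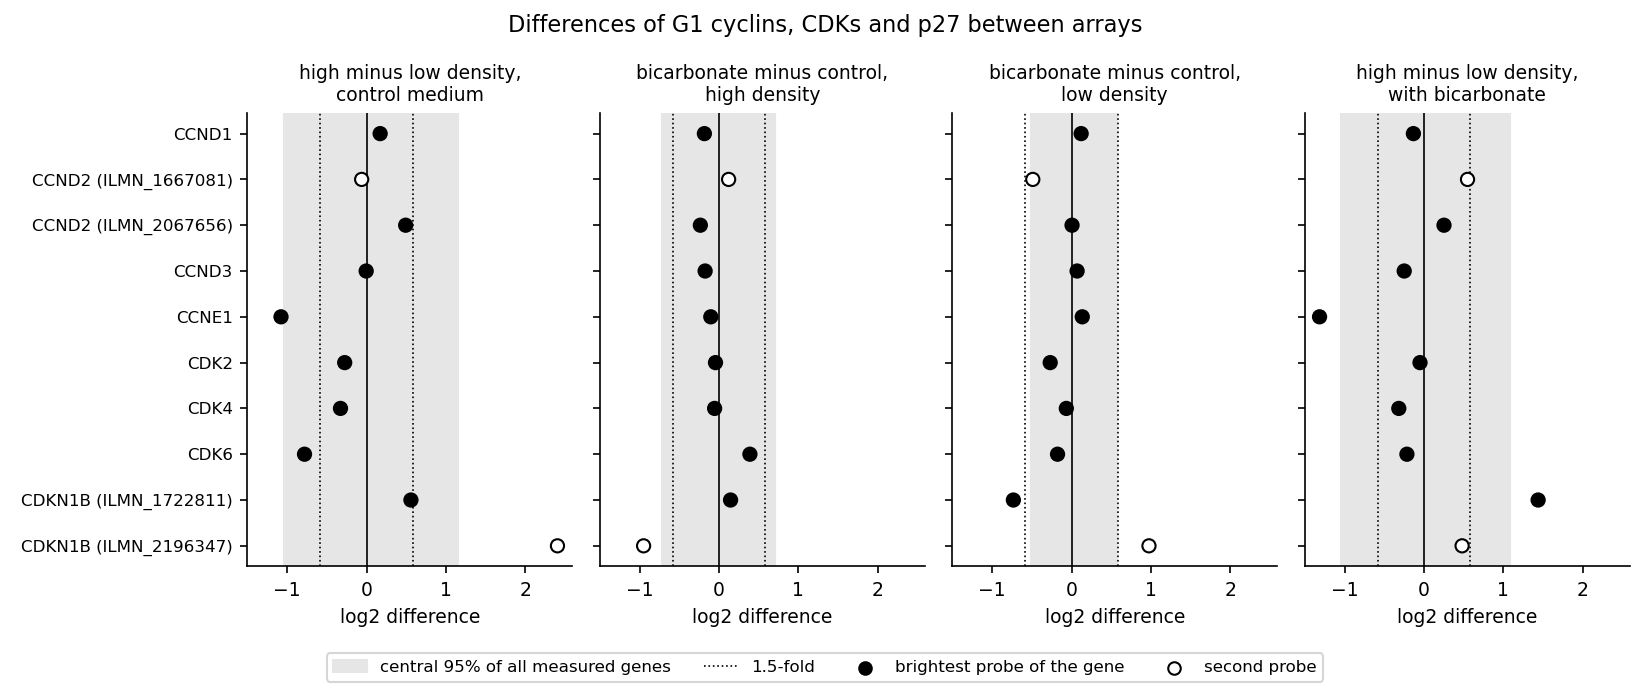
Log2 difference (x axis) of each member probe (rows) in 4 comparisons (panels), with filled points for the brightest probe of a gene, open points for the second, grey bands for the central 95% of all measured genes and dotted lines at 1.5-fold. CCNE1 lies left of the grey band in both density panels, and the 2 CDKN1B probes lie on opposite sides of 0 in both bicarbonate panels.

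By brightest probe, 2 of 8 measured members were at least 1.5-fold lower at high density in control medium (CCNE1 and CDK6) and 0 were higher. Over all 8936 measured genes, 11.9% were that much lower and 12% higher. With bicarbonate 1 of 8 was lower (CCNE1) and 1 higher (CDKN1B), where 12% and 11.5% of 8836 genes were. At 2-fold the members past the threshold were CCNE1 in control medium, where 2.84% of genes were that much lower, and CCNE1 and CDKN1B with bicarbonate, where 2.93% of genes were lower and 3.43% higher. The median of the members was -0.14 in control medium and -0.18 with bicarbonate, against 0.01 and -0.03 over all genes. As a group the members thus differed about as often as other genes.

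The second question was how these genes differed between added bicarbonate and control medium at high density. No measured member was 1.5-fold apart by its brightest probe, and the range ran from -0.24 (CCND2) to 0.39 (CDK6). Past that threshold were 4.49% of all 9188 genes on the higher side and 4.47% on the lower. Cyclin E1 stood at -0.10, CDK4 at -0.06, CDK2 at -0.04, CCND1 at -0.18 and CCND3 at -0.18. When arrays were set to equal medians, which moved the median of all genes to -0.14, CCND2 stood at -0.55, CCND1 at -0.48, CCND3 at -0.37 and CDK4 at -0.34, still under 1.5-fold. The level of cyclin E1 at high density with bicarbonate was thus not nearer to that of the low-density arrays than the level of the high-density control was. CDK6 was the member whose value with bicarbonate lay farthest above that in the high-density control, at 1.31-fold, higher than 88% of genes, and its level there lay between those of the high-density control and of the low-density arrays. The brighter CDKN1B probe stood at 0.15 and the second at -0.95 (1.93-fold lower), lower than 99.3% of measured genes, so whether p27 RNA was lower with bicarbonate at high density depends on the probe. The high-density control array enters this comparison and the density comparison in control medium with opposite signs, so the 2 comparisons are not independent of each other.

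CDKN1A, the inhibitor p21 of the same family as p27, had log2 levels of 9.63 at high density with bicarbonate and 12.30 in the high-density control, against 7.72 at low density with bicarbonate and 8.02 in the low-density control. The second CDKN1B probe put the 2 high-density arrays in the same order as CDKN1A did, and the brighter one put them in the opposite order. For the 2 low-density arrays it was the reverse: the brighter CDKN1B probe had the order of CDKN1A and the second had the opposite order.

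At low density, 1 of 8 measured members was at least 1.5-fold lower with bicarbonate than in control medium and 0 were higher, where 1.48% of 8973 genes were lower and 2.24% higher. That member was CDKN1B on its brighter probe, at -0.73 (1.66-fold), lower than 99.5% of genes, whereas its second probe stood at 0.98 (1.97-fold higher), higher than 99.9% of genes. Without background correction the brighter probe stood at -0.47, which is under 1.5-fold. The value of the second probe uses its low-density control reading, which lay near the detection limit. A gap of 1.71 between 2 probes was larger than that of 99.9% of the 1738 genes. Averaged over both probes the CDKN1B difference was 0.12. The other members lay between -0.27 (CDK2) and 0.14 (CCNE1), and the second CCND2 probe stood at -0.49 against 0.01 on the brighter. The bicarbonate difference at high density minus that at low density was 0.88 for CDKN1B on the brighter probe, the only measured member past 1.5-fold (10.4% of 8554 genes were higher by that much and 10.7% lower), and -1.93 on the second probe. CDK6 followed at 0.57, and CCNE1 (-0.24), CCND1 (-0.31) and CDK4 (0.01) were smaller.

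The rest of the G1 machinery was described with a list of 30 genes, of which 22 were measured in the density comparison in control medium. There 4 stood higher by 1.5-fold or more and 4 lower, around a median of 0.00, where 12% of all genes were higher and 11.9% lower. With bicarbonate 2 of 22 stood higher and 5 lower, around a median of -0.10, where 11.5% of all genes were higher and 12% lower. The highest in control medium were other Cip/Kip inhibitors, CDKN1A (4.28 in control medium and 1.91 with bicarbonate) and CDKN1C, the inhibitor p57 (1.37 in control medium, not detected at low density with bicarbonate). The CDKN1C level in the low-density control was 6.54, below the CDKN1B reading near the detection limit (6.60), so the size of 1.37 is uncertain. The pocket protein RBL2, chosen after its values were seen as the only member of that family measured, was higher at 0.79 in control medium and 0.82 with bicarbonate. RB1 and RBL1 were not measured, and neither were the INK4 inhibitors CDKN2A, CDKN2B and CDKN2D. The lowest in control medium were CDC25A, the phosphatase that activates CDK2 (-1.17 in control medium and -1.04 with bicarbonate), TFDP1, the dimer partner of E2F factors (-1.11 and -0.92, and -1.12 and -0.75 on its second probe), and the repressive E2F5 (-0.999 and -0.37). The activating E2F2 stood at -0.23 in control medium and -1.27 with bicarbonate, the lowest of the list there. Between bicarbonate and control at high density, 0 of 22 genes of the list stood higher by 1.5-fold and 2 lower, around a median of -0.05, where 4.49% of all genes were higher and 4.47% lower. These were CDKN1A (-2.67) and E2F2 (-0.75), and the next largest values were those of the repressor E2F6 (0.48) and of E2F5 (0.36). Of the listed genes of the SCF ligases that mark p27 and cyclin E for degradation, 6 of 6 were measured. For density, 1 was lower by 1.5-fold in each medium, where 11.9% of all genes were in control medium and 12% with bicarbonate. Their median was 0.05 in control medium and -0.19 with bicarbonate.

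**Figure D3:**
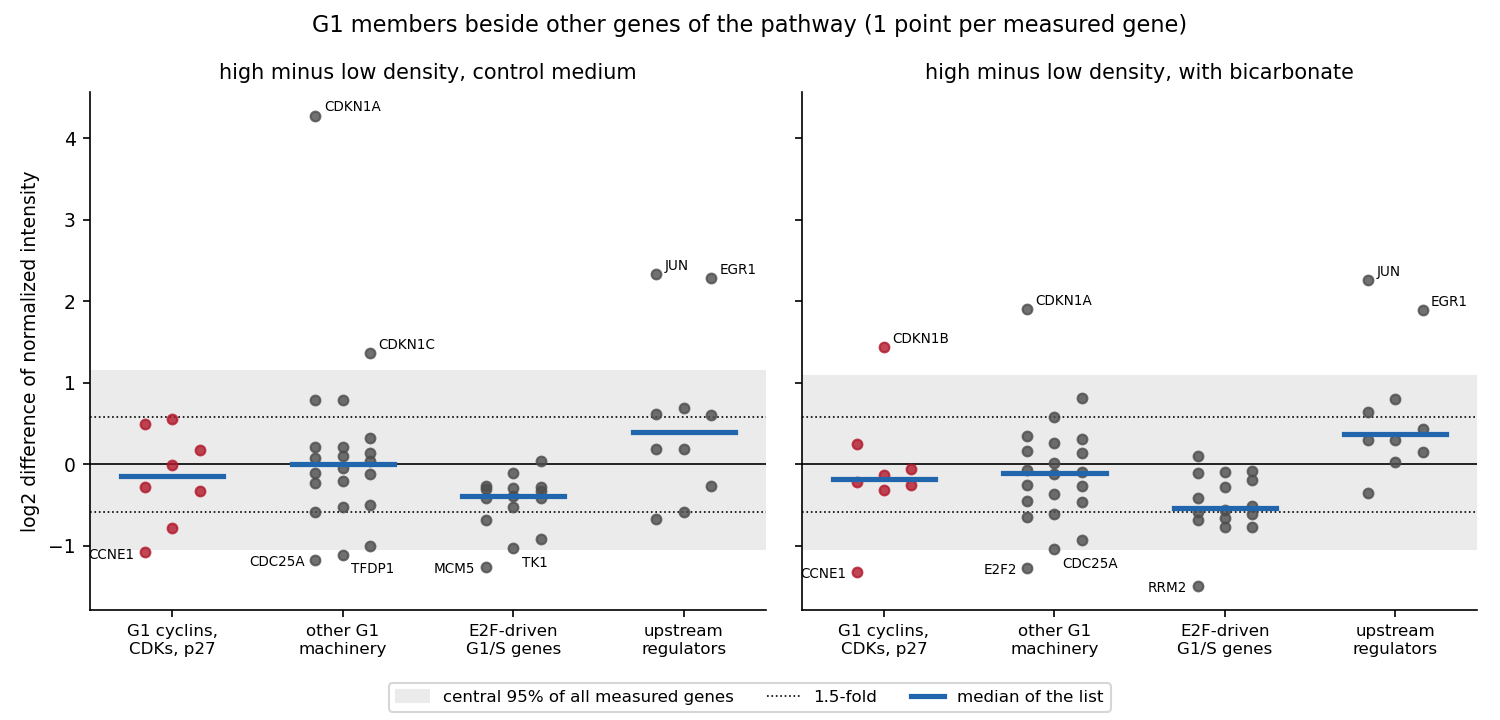
Log2 difference between high and low density (y axis) of every measured gene in 4 lists (x axis), in control medium (left) and with bicarbonate (right), with blue bars for list medians, grey bands for the central 95% of all measured genes and dotted lines at 1.5-fold. The E2F-driven list sits mostly below 0 in both panels, and CCNE1 lies with its lowest genes.

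E2F-driven genes of the G1/S transition, the class to which cyclin E1 belongs, had medians below 0 for high against low density in both media. In control medium 4 of 15 measured genes were past 1.5-fold on the lower side (11.9% of all genes) and 0 on the higher (12%), and the list median was -0.39 against 0.01 over all genes. With bicarbonate 6 of 16 were lower (12% of all genes) and 0 higher (11.5%), and the median was -0.54 against -0.03. The median stayed between -0.41 and -0.37 in control medium and between -0.76 and -0.51 with bicarbonate under the 9 processing settings. They included the helicase subunit MCM5 (-1.26 in control medium and -0.56 with bicarbonate), thymidine kinase TK1 (-1.03 and -0.77), the replication factor GINS2 (-0.92 and -0.68) and the origin recognition subunit ORC1 (-0.69 and -0.09). MCM6 stood at -0.28 and -0.77. RRM2, a ribonucleotide reductase subunit named after its values were seen, had the largest difference of the list with bicarbonate (-1.49) and was not measured in the high-density control. With bicarbonate at high density 0 of 15 were 1.5-fold apart in either direction, where 4.49% of all genes were higher and 4.47% lower. The list median there was 0.05, and -0.27 when arrays were set to equal medians. GINS2 (0.37), MCM5 (0.36), MCM6 (-0.31) and ORC1 (0.29) had the largest values there.

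Of 10 regulators that act upstream of the D-type cyclins and p27, all were measured, and in control medium 5 stood higher at high density by 1.5-fold or more and 2 lower, around a median of 0.40 against 0.01 over all genes, of which 12% were higher and 11.9% lower. With bicarbonate 4 of 10 stood higher and 0 lower, around a median of 0.37 against -0.03 over all genes, of which 11.5% were higher and 12% lower. Under the 9 processing settings the list median ran from 0.19 to 0.40 in control medium and from 0.28 to 0.42 with bicarbonate. The early-response transcription factors JUN (2.33, and 2.26 with bicarbonate) and EGR1 (2.28, and 1.89 with bicarbonate) were the highest. Their low-density levels were low, at 6.52 (JUN) and 6.65 (EGR1) in control medium and 6.96 and 6.85 with bicarbonate. Those in control medium lay close to the CDKN1B reading near the detection limit (6.60), so the sizes are uncertain. In control medium FOXO3, an activator of the p27 gene, stood at 0.69 on its brighter probe and -0.17 on its second. Its direction there depends on the probe, whereas for density with bicarbonate the 2 probes stood at 0.30 and 0.29. FOXO1 stood at -0.67 in control medium and -0.35 with bicarbonate. With bicarbonate at high density MYC, which drives the genes of D-type cyclins and CDK4, was the 1 regulator of 10 past 1.5-fold, at 0.78, and at 0.72 on its second probe. Over all 9188 genes, 4.49% were that much higher there and 4.47% lower. FOXO1 (0.42), JUN (0.36) and MYCN (0.21, but 0.78 on its second probe) followed.

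For the 3 members with the widest range, the genes with the most similar profile over the 4 arrays were found by the root mean square distance of log2 levels, each centred on its own mean, among 8553 other genes. Nearest to CCNE1 (range 1.32) were NAGPA at a distance of 0.04, MAT2A at 0.04 and the transcriptional kinase gene CDK12 at 0.06. Nearest to the brighter CDKN1B probe (range 1.44) were LGALS1 at 0.05, SLC25A37 at 0.05 and ISG15 at 0.07. Nearest to CDK6 (range 0.78) were HNRNPD at 0.01, VPS25 at 0.02 and EFS at 0.02. With 4 arrays and this many genes some profile is always close, so these neighbours are a description. The ranges of CDKN1B and CCNE1 were wider than those of 96.7% and 95.3% of 8554 genes, that of CDK6 wider than 75.4%, and those of the other 5 members narrower than the median of 0.53.

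**Figure D4:**
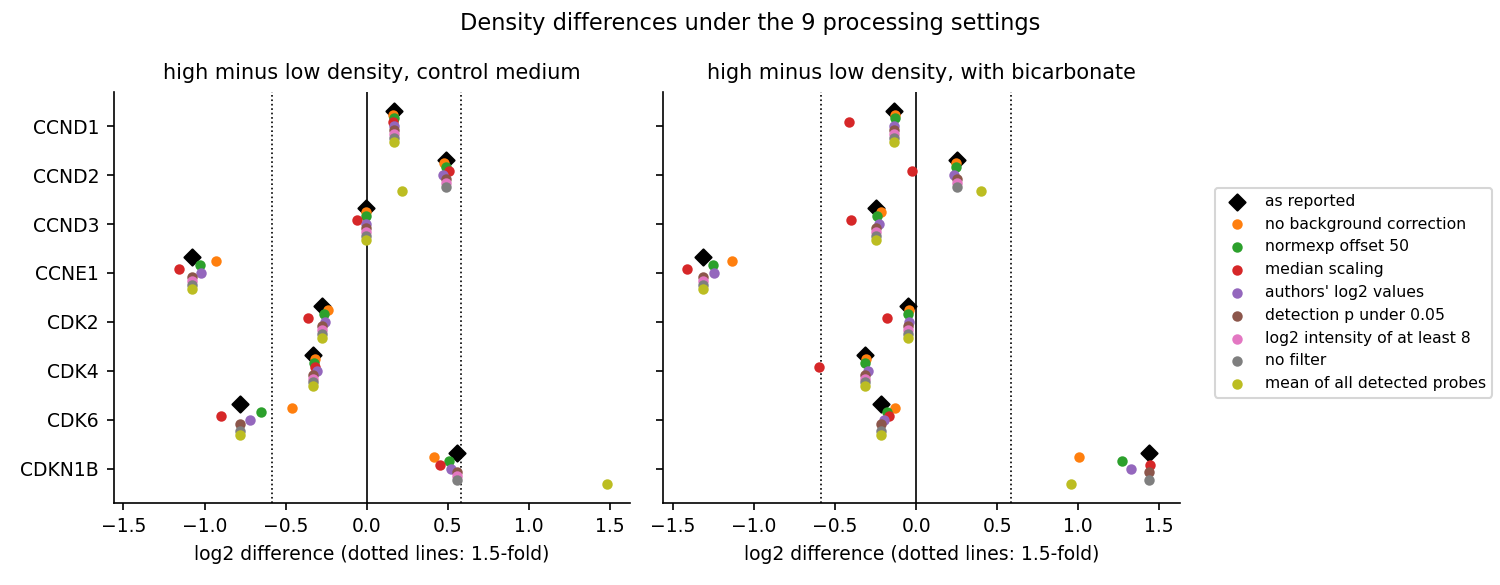
Log2 difference between high and low density (x axis) of the 8 measured members (rows) under 9 processing settings (points, with a black diamond for the values reported), in control medium (left) and with bicarbonate (right). CCNE1 stays beyond the dotted 1.5-fold line in both panels, between -1.16 and -0.93 and between -1.42 and -1.13, while CDKN1B in control medium spans 0.42 to 1.48.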

How the data were processed

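Biotin-labelled cRNA of 4 H9 samples, 1 per group, was put on Illumina expression arrays (per the labels' protocols), and groups were taken from the sample titles. The authors deposited 1 intensity per probe and array, not normalized, per the file headers, each with its detection p-value, per the file headers, whose steps correspond to 770 negative controls. A table of log2 values, with nearly equal quantiles on all arrays, was deposited as well. How its background and normalization were done, and with what scanner software, is not given in the sources used here.

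Background was corrected with the normal-exponential model of limma 3.58.1 (R 4.3.3), with negative controls inferred from the detection p-values and an offset of 16, then quantile normalized, which removes any shift common to all genes. Further steps used Python 3.11.15 with pandas 2.3.3, numpy 2.4.6, matplotlib 3.10.9 and scipy 1.17.1. Probes were named from the platform annotation (30098 of 47293 had 1 gene symbol, 8 several and 17187 none). Platform symbols were compared with current ones through gene IDs and 0 changed. Each gene was read from the probe of highest mean log2 level among its probes detected on 1 or more arrays. It counted as measured where that probe was detected on both arrays of a comparison, or on all 4 for the difference between the bicarbonate differences. Between 8554 and 9188 genes were measured, depending on the comparison. Members were counted at 1.5-fold and 2-fold. The procedure was tested on simulated data, whose noise was set and not taken from cultures. That test therefore says nothing on the spread between cultures.

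The members, the 3 gene lists and the alternatives were chosen with earlier results of these data known. All member probes were named. From each list the text names the 4 measured genes with the largest absolute difference in density in control medium and the 4 in bicarbonate at high density, and for the 3 members with the widest range the 3 nearest profiles. Markers were taken from textbook knowledge. Promoter sequences are RefSeq's (GRCh38.p14), and the motifs searched were chosen after the sequences were seen. Alternatives were no background correction, an offset of 50, median scaling, the authors' values, a detection p under 0.05, a log2 intensity of at least 8, no filter, and the mean of all detected probes.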

Additional observations from a re-analysis of the deposited data

Results flagged for a closer look

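Probes whose bicarbonate difference had opposite signs at high and at low density, with a gap of at least 1.5-fold between them, belong to 2 members, and with 1 array per group none of these differences was tested. On the CDKN1B probe ILMN_1722811 the difference at high density minus that at low density was 0.88, from 0.15 and -0.73. On its other probe, ILMN_2196347, it was -1.93, from -0.95 and 0.98, the opposite pattern for the same gene. The reading of ILMN_2196347 in the low-density control, which enters the 0.98, lay near the detection limit. On the CCND2 probe ILMN_1667081 it was 0.61, from 0.12 and -0.49, while the brighter CCND2 probe gave -0.24.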

How the results depend on the processing

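Of 312 member differences recomputed under the 8 alternatives, 303 moved by less than the spread of a single probe, 7 moved by more and 2 changed sign from a difference of at least 1.5-fold. Many of the 303 could not move, so that count does not measure stability. A detection p under 0.05, a log2 intensity of at least 8 and no filter kept the same probes and normalized values. The mean of all detected probes could change only CCND2 and CDKN1B. That spread is the SD of the disagreement between 2 probes divided by the square root of 2, which is 0.35 for density in control medium, 0.25 for bicarbonate at high density, 0.29 at low density, 0.29 for density with bicarbonate and 0.46 for the difference between the bicarbonate differences. Both reversals were of CDKN1B with the mean of all detected probes, to 0.12 for bicarbonate at low density and to -0.52 for the difference between the bicarbonate differences. The count of members at least 1.5-fold apart for density in control medium was 1 in place of 2 without background correction and with a log2 intensity of at least 8, under which CDK6 was no longer measured, and 3 with the mean of all detected probes. For density with bicarbonate it was 1 in place of 2 with a log2 intensity of at least 8 and 3 with median scaling. For bicarbonate at low density the 1 member became 0 without background correction, with a log2 intensity of at least 8 and with the mean of all detected probes, and for the difference between the bicarbonate differences it became 2 with median scaling and 0 with the last 2 of these. For bicarbonate at high density it was 0 under all 8 alternatives. Median scaling moved the median of all genes to -0.14 for bicarbonate at high density, -0.11 for bicarbonate at low density and -0.11 for density with bicarbonate, and the members' medians to -0.28, -0.04 and -0.29. Over all genes, the share at least 1.5-fold apart for density in control medium was 23.9%, and 14% without background correction. The fixed threshold of 8 dropped CDKN1B in the comparisons that use the low-density bicarbonate array. No paired analysis was possible because each group has 1 array.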
